A study of Homo sapiens with 24 samples.

Results

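The genes of the unfolded protein response and the integrated stress response were followed across 24 RNA-seq libraries of LNCaP, an androgen-responsive human prostate cancer cell line. The 47 genes were found by symbol among the 60649 features of the count table, and all 47 passed the filter on low counts in both fits. CREB3L1 passed only through androgen-treated libraries, where it was higher. They comprise 12 genes assigned to the IRE1-XBP1 branch, 14 to the ATF6 branch, 12 to the PERK-ATF4 branch, 4 transcription factors of the CREB3 family and 5 other folding factors of the endoplasmic reticulum (ER). The assignment follows textbook knowledge, and several genes answer to more than a single branch.

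The unfolded protein response adjusts the ER to its protein load through 3 membrane sensors. IRE1 (gene ERN1) removes a short stretch from the XBP1 messenger RNA so that an active transcription factor is made, ATF6 is cut in the Golgi to release a transcription factor of its own, and PERK (gene EIF2AK3) phosphorylates the translation initiation factor eIF2alpha, which slows protein synthesis while ATF4 is translated. Other kinases reach ATF4 through the same phosphorylation, for example when amino acids are short, and this wider route is called the integrated stress response. The activity of IRE1, ATF6 and PERK lies in cleavage and phosphorylation, which counts of messenger RNA do not measure. Prostate luminal cells secrete large amounts of protein, and androgen is known to act on this response in prostate cancer cells.

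Each of the 8 groups had 3 libraries, described as biological triplicates. In study 1, LNCaP cells received an empty vector (EV) or a construct encoding WDR77-peptide 3 (P3), named for the protein WDR77. In study 2 they received non-targeting control siRNA (siCtrl) or siRNA targeting WDR77 (siWDR77). All cells were then kept in androgen-deprived medium and given 5 nM R1881, a synthetic androgen, or its ethanol vehicle for 48 h. All 8 groups therefore share a transfection and androgen deprivation, no group was left untransfected, and no chemical inducer of ER stress was used. Libraries are named here by group and by the sample number in their titles, for example EV_vehicle S29.

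Total counts ran from 16665915 to 24260446 per library. The cells kept the markers of the labelled line: KLK3, KRT8, KRT18 and EPCAM were present in all 24 libraries, whereas COL1A2 had no count in any and KRT5, TP63, DCN, PTPRC, CD68, PECAM1 and CHGA had a median of 0. Of the other genes listed for basal, mesenchymal and neuroendocrine cells, KRT14, VIM, SYP, COL1A1 and ENO2 had medians of 2.75, 2.79, 3.18, 15.8 and 38.1 CPM (counts scaled to the size of the library, not to gene length). WDR77 read 11.3 to 14.9 CPM in the 3 siWDR77_vehicle libraries against 41.7 to 46.7 in siCtrl_vehicle, and 13.4 to 15.6 CPM in siWDR77_R1881 against 63.8 to 67.3 in siCtrl_R1881. In study 1, where reads of the construct may count as WDR77, it read 89.3 to 101 CPM in P3_R1881 against 58.8 to 64.0 in EV_R1881, and 52.3 to 61.6 in P3_vehicle against 55.1 to 63.6 in EV_vehicle. No member had a count of 0 in any library. The 47 members together took 0.872% to 0.914% of the counts in the vehicle libraries of study 1, 1.28% to 1.30% in EV_R1881 and 1.08% to 1.12% in P3_R1881. In study 2 they took 0.734% to 0.843% with vehicle and 1.30% to 1.45% with R1881.

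The library siCtrl_vehicle S35 stood apart from the other 2 of its group. Mitochondrially encoded genes took 8.40% of its counts against 5.15% to 6.30% in the other 23 libraries, and the androgen target KLK3 read 52.6 CPM in it against 204 and 203 in the others. GDF15 read 380 CPM in S35 against 180 and 162, ATF4 312 against 263 and 233, and DDIT3 19.4 against 12.5 and 11.1. The chaperone genes HSPA5 and CALR were lower in it, at 544 CPM against 727 and 677 for HSPA5 and at 911 against 1174 and 1106 for CALR. Counts over the members that rest on siCtrl_vehicle are therefore also given without this library, as are the values of single genes that S35 moved most. No member called in the siCtrl response lost its call without it.

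With R1881, the genes of the IRE1-XBP1 and ATF6 branches rose nearly throughout in both control arms, while the PERK-ATF4 branch held members that fell in EV. In EV cells 40 of 47 members rose and 3 fell at an adjusted p under 0.05 in edgeR's quasi-likelihood test, where 51.4% of all 17772 genes tested were called, 24.9% higher and 26.4% lower. The median member rose by 0.71 on the log2 scale, against a median of -0.04 over all genes. By branch, 12 of 12 IRE1-XBP1 members rose (median log2 change 0.86), as did 13 of 14 ATF6 members (0.61), all 4 CREB3 family members (1.34) and all 5 other folding factors (0.72). Of the 12 PERK-ATF4 members 6 rose, 3 fell and 3 were not called, and their median was 0.18.

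In siCtrl cells 42 of 47 members rose and none fell, where 51.1% of 17893 genes were called, 25.7% higher and 25.4% lower. Without siCtrl_vehicle S35, 43 rose, among them the same 42, and the member added was PPP1R15A. Here 12 of 12 IRE1-XBP1 members rose (median log2 change 1.30), with 13 of 14 ATF6 members (1.08), 8 of 12 PERK-ATF4 members (0.50), all 4 CREB3 family members (1.97) and all 5 other folding factors (0.98). Without S35 these branch medians were 1.28, 0.96, 0.58, 1.91 and 0.99. At least 2-fold rises were found in 12 members in EV and in 23 in siCtrl, or in 19 without S35. In bulk RNA a change in level per cell and a change in the share of cells that express a gene cannot be told apart. Summed over their lists, markers of other cell types moved with R1881 in study 2. In siCtrl the 3 neuroendocrine markers summed to 32.1 to 43.2 CPM with vehicle and 13.4 to 16.8 with R1881, the 4 mesenchymal markers to 23.5 to 26.7 and 10.9 to 12.8, and the 3 basal markers to 0.226 to 1.01 and 5.86 to 9.79. In siWDR77 the same sums were 31.7 to 32.96 CPM with vehicle and 13.4 to 18.2 with R1881 for neuroendocrine, 18.5 to 21.5 and 7.65 to 10.6 for mesenchymal, and 1.30 to 1.83 and 6.63 to 8.03 for basal markers. In EV they were 43.3 to 46.7 CPM with vehicle and 43.0 to 54.5 with R1881 for neuroendocrine, 18.6 to 20.9 and 20.2 to 28.3 for mesenchymal, and 1.86 to 2.82 and 2.64 to 3.21 for basal markers. The part of these shifts in the members' responses was not tested. The p-values rest on the spread between replicate cultures of 1 cell line, pooled over all groups in a fit. The spread within siCtrl_vehicle, S35 included, therefore also enters the tests of siWDR77.

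**Figure D1:**
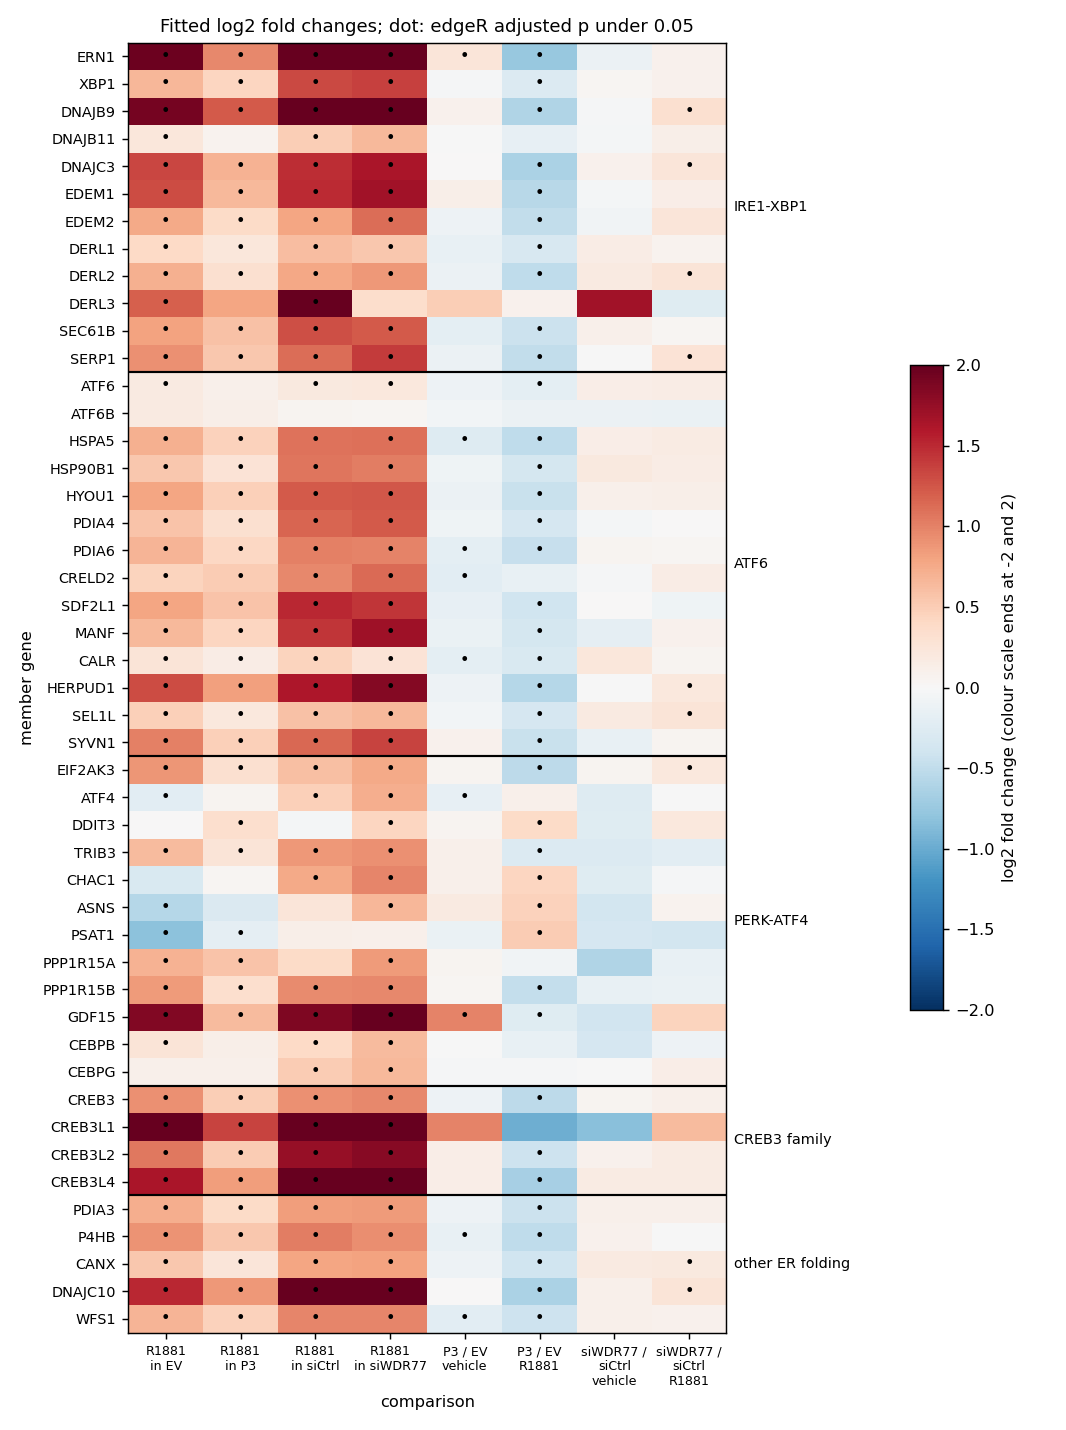
Fitted log2 fold change of each of the 47 members (rows, grouped by branch) in 8 comparisons (columns), coloured from -2 (blue) to 2 (red), with a dot where the edgeR adjusted p was under 0.05. The 4 columns of R1881 responses are red in nearly all rows outside the PERK-ATF4 block. The column P3 / EV R1881 is blue in most rows outside that block, but not in that of DERL3.

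ERN1 encodes IRE1, the sensor and endonuclease, and lies on the minus strand at chr17:64039142-64130819 (GRCh38, GENCODE 29). It read 46.5, 41.6 and 41.3 CPM in EV_vehicle and 166, 166 and 169 in EV_R1881. In study 2 it read 38.7, 50.9 and 40.5 CPM in siCtrl_vehicle and 199.7, 202 and 201 in siCtrl_R1881. All R1881 libraries lay above all vehicle libraries in both arms, and the highest siCtrl_vehicle value is that of S35. The rise was 1.96 ± 0.066 (SE, edgeR adjusted p = 2.23e-26) on the log2 scale in EV and 2.21 ± 0.08 (SE, edgeR adjusted p = 1.46e-16) in siCtrl, where it was 2.34 ± 0.069 (SE) without S35. ERN1 was the largest riser of its branch in EV and the second largest after DNAJB9 among the well-counted members in siCtrl.

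XBP1 encodes the transcription factor that IRE1 activates, and its gene lies on the minus strand at chr22:28794555-28800597. It read 156, 166 and 153 CPM in EV_vehicle against 265, 240.4 and 249.8 in EV_R1881, and 128, 118 and 117 in siCtrl_vehicle against 307, 306 and 291 in siCtrl_R1881. The groups did not overlap in either study. The rise was 0.67 ± 0.056 (SE, edgeR adjusted p = 1.4e-13) on the log2 scale in EV and 1.32 ± 0.063 (SE, edgeR adjusted p = 4.57e-15) in siCtrl. The fitted rise of XBP1 was below that of ERN1 in both arms.

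The counts are summed over the gene and do not separate XBP1 messenger RNA before and after cutting by IRE1. The 2 forms differ by a stretch of 26 bases, which is present in the GENCODE 29 transcript XBP1-201 at bases 567 to 592 and absent from XBP1-202. It is shown because the state of this branch is read from it and these data cannot resolve it. The capitals mark the 26 bases and the lower case 15 bases on either side, 5′ to 3′.
XBP1-201: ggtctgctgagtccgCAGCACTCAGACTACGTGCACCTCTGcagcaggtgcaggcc
Since 26 is not a multiple of 3, its removal shifts the reading frame of what follows.

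Genes known as targets of XBP1 rose with R1881 over a wide range. DNAJB9 encodes ERdj4, a co-chaperone that binds IRE1 and unfolded proteins, and read 15.2, 15.5 and 11.7 CPM in EV_vehicle against 56.6, 52.5 and 51.1 in EV_R1881. In study 2 it read 12.1, 15.1 and 12.8 CPM in siCtrl_vehicle against 81.7, 76.8 and 76.0 in siCtrl_R1881. The R1881 libraries lay far above the vehicle libraries in both studies, with a rise of 1.91 ± 0.094 (SE, edgeR adjusted p = 7.53e-21) on the log2 scale in EV and 2.55 ± 0.081 (SE, edgeR adjusted p = 1.6e-18) in siCtrl.

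DNAJC3, which encodes the co-chaperone p58IPK, rose by 1.34 ± 0.058 in EV and 1.48 ± 0.062 in siCtrl on the log2 scale (SE). EDEM1, a lectin that directs misfolded glycoproteins to degradation, rose by 1.31 ± 0.054 and 1.5 ± 0.06, and its relative EDEM2 by 0.76 ± 0.10 and 0.79 ± 0.11. The translocon subunit SEC61B rose by 0.81 ± 0.11 and 1.29 ± 0.061, and SERP1, which stabilises membrane proteins at the translocon, by 0.91 ± 0.049 and 1.11 ± 0.056. Of the Derlins, which serve the export of misfolded proteins from the ER, DERL1 rose by 0.40 ± 0.06 and 0.62 ± 0.069 and DERL2 by 0.71 ± 0.073 and 0.78 ± 0.065. DNAJB11, the co-chaperone ERdj3, rose least of the branch in both arms, by 0.22 ± 0.069 and 0.49 ± 0.075.

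DERL3 was called in both control arms but rests on few reads. It read 0.273, 0.408 and 0.692 CPM in EV_vehicle and 1.59, 0.755 and 0.786 in EV_R1881, and 0.0993, 0.271 and 0.161 in siCtrl_vehicle and 0.822, 1.07 and 0.763 in siCtrl_R1881. The groups did not overlap, and the fitted rise was 1.197 ± 0.46 (SE, edgeR adjusted p = 0.0287) in EV and 2.28 ± 0.60 (SE, edgeR adjusted p = 0.00245) in siCtrl on the log2 scale. In EV the call was lost without EV_vehicle S1 (edgeR adjusted p = 0.122), EV_vehicle S15 (0.0913) or EV_R1881 S16 (0.268). With no filter on low counts the DERL3 call in EV was also lost (edgeR adjusted p = 0.0553). In GENCODE 29, 77.0% of its exon bases overlap SMARCB1 on the other strand, and the strand setting of the counting is not given in the sources used here.

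**Figure D2:**
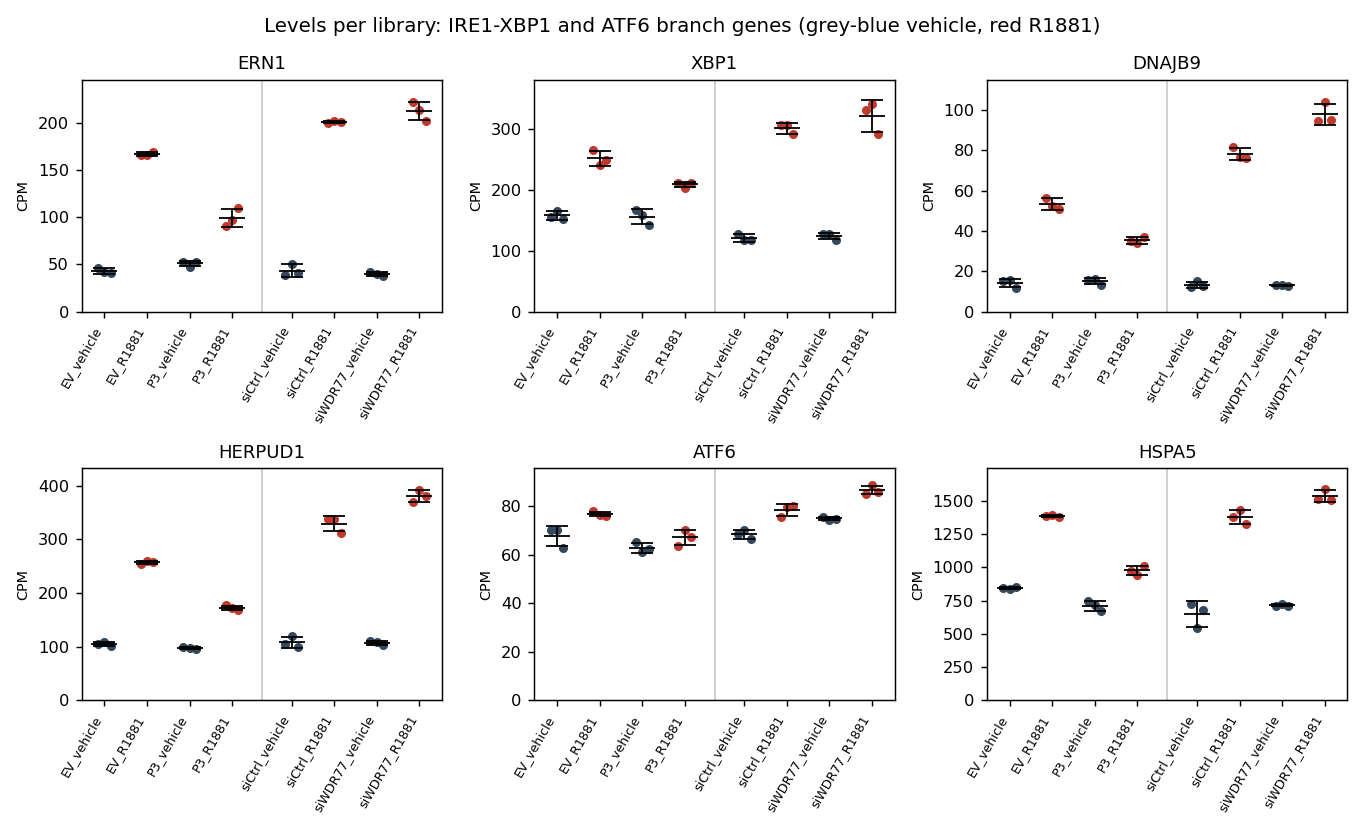
Level of 6 IRE1-XBP1 and ATF6 branch genes in CPM (vertical axis, from 0) in each library of the 8 groups (horizontal axis), with vehicle in dark blue-grey, R1881 in red and bars at the mean ± SD of 3 libraries. ERN1 sits at 166 to 169 CPM in EV_R1881 and at 91.2 to 110 in P3_R1881, while ATF6 spans only 61.0 to 88.9 CPM over all 24 libraries.

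ATF6 itself rose only slightly, while the chaperones known as its targets rose more. ATF6, on the plus strand at chr1:161766294-161964070, read 70.2, 70.1 and 62.8 CPM in EV_vehicle and 78.0, 76.7 and 76.2 in EV_R1881. It read 68.4, 70.4 and 66.6 CPM in siCtrl_vehicle and 75.7, 79.8 and 80.1 in siCtrl_R1881. The groups did not overlap, yet the rise was only 0.18 ± 0.062 (SE, edgeR adjusted p = 0.0119) on the log2 scale in EV and 0.20 ± 0.058 (SE, edgeR adjusted p = 0.00633) in siCtrl. In EV it was no longer called without EV_vehicle S29 (0.15, edgeR adjusted p = 0.0585). Its relative ATF6B was the 1 member of the branch not called in either arm, with fitted changes of 0.17 ± 0.09 and 0.054 ± 0.096 (SE).

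HSPA5 encodes BiP, the main chaperone of the ER lumen, which also holds the sensors inactive. It read 845, 840.2 and 854 CPM in EV_vehicle against 1387, 1396 and 1381 in EV_R1881, and 727, 544 and 677 in siCtrl_vehicle against 1376, 1428 and 1325 in siCtrl_R1881. The R1881 libraries lay above the vehicle libraries throughout, with a rise of 0.71 ± 0.047 (SE, edgeR adjusted p = 9.06e-17) on the log2 scale in EV and 1.08 ± 0.075 (SE, edgeR adjusted p = 4.28e-11) in siCtrl, or 0.97 ± 0.054 (SE) without S35.

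HERPUD1, an ER membrane protein that recruits the degradation machinery, rose most of the branch. It read 104, 108 and 101 CPM in EV_vehicle against 254, 260.2 and 259 in EV_R1881, a rise of 1.30 ± 0.051 (SE, edgeR adjusted p = 3.49e-24) on the log2 scale. In siCtrl it rose from 105, 119 and 99.1 to 338, 337 and 313 CPM, by 1.61 ± 0.064 (SE, edgeR adjusted p = 1.25e-16). No vehicle library reached an R1881 library. The ubiquitin ligase SYVN1 rose by 1.01 ± 0.059 in EV and 1.15 ± 0.071 in siCtrl, and its partner SEL1L by 0.48 ± 0.051 and 0.58 ± 0.059 (SE, log2 scale).

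The remaining 8 genes of the branch all rose in both arms. Among the chaperones, HYOU1 rose by 0.79 ± 0.048 in EV and 1.23 ± 0.063 in siCtrl, HSP90B1 (GRP94) by 0.54 ± 0.049 and 1.07 ± 0.082, and the calcium-binding lectin CALR by 0.25 ± 0.047 and 0.44 ± 0.072 (SE, log2 scale). The disulfide isomerases PDIA4 and PDIA6 rose by 0.57 ± 0.05 and 0.68 ± 0.054 in EV and by 1.17 ± 0.07 and 1.01 ± 0.063 in siCtrl. MANF, a secreted protein of the stressed ER, rose by 0.64 ± 0.07 and 1.43 ± 0.076, SDF2L1 by 0.79 ± 0.077 and 1.51 ± 0.11, and CRELD2 by 0.45 ± 0.063 and 0.96 ± 0.066. CALR was the smallest riser among these 8 in both arms.

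Several promoters of these genes hold the letters of known response elements of the pathway. The ER stress response element, ERSE, is CCAAT followed by CCACG after 9 bases of any kind, and ERSE-II is ATTGG followed by CCACG after 1 base of any kind. Both were sought on both strands in the 250 bases before each RefSeq start (GRCh38.p14), of which the table has 35116 windows, and 44 members had a window (not DERL1, DERL3 and PDIA3). ERSE was found in 26 windows, 0.074% of all, and among them were those of 8 members: HSPA5, HSP90B1, CALR, CRELD2 and PDIA6 of the ATF6 branch, XBP1 and SERP1 of the IRE1-XBP1 branch, and CANX. ERSE-II was found in 18 windows, 0.0513% of all, including those of HERPUD1, HYOU1 and SDF2L1. No PERK-ATF4 or CREB3 family member held either. ERSE was first defined on promoters of ER chaperone genes, so its presence there is not independent of how the genes were assigned.

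The elements of the IRE1-XBP1 and ATF6 branch genes are shown in the direction of transcription, 5′ to 3′, with 6 flanking bases. The capitals mark the fixed letters of the element, which read CGTGG and ATTGG for an ERSE on the other strand and CGTGG and CCAAT for such an ERSE-II.
HSPA5 (chr9:125241385-125241415, minus strand): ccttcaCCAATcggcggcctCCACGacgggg
XBP1 (chr22:28800597-28800627, minus strand): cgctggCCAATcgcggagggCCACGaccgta
HSP90B1 (chr12:103930210-103930240, plus strand): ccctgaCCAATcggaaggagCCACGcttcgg
HSP90B1 (chr12:103930315-103930345, plus strand): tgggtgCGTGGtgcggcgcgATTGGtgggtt
PDIA6 (chr2:10812847-10812877, minus strand): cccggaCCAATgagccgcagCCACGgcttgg
SERP1 (chr3:150546704-150546734, minus strand): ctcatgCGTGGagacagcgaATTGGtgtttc
CALR (chr19:12938378-12938408, plus strand): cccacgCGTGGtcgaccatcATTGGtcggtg
HERPUD1 (chr16:56932019-56932041, plus strand): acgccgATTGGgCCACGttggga
CRELD2 (chr22:49918548-49918578, plus strand): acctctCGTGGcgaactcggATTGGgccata
SDF2L1 (chr22:21642108-21642130, plus strand): cggaagCGTGGaCCAATcaaaac
HYOU1 (chr11:119057374-119057396, minus strand): ccgtgaCGTGGtCCAATcccagg
HYOU1 (chr11:119057268-119057290, minus strand): ctgggaCGTGGtCCAATgagtac
HSP90B1 held a pair of ERSE copies and HYOU1 a pair of ERSE-II copies. A match describes these letters and does not show that a factor binds there.

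The 11 members with ERSE or ERSE-II rose in EV by 0.25 to 1.30 on the log2 scale (median 0.68) and in siCtrl by 0.44 to 1.61 (median 1.08), all 11 called higher in each. Of the 33 members with a window but neither element, 26 rose and 3 fell in EV with a median of 0.71, and 28 rose in siCtrl with a median of 0.92. The median was thus slightly lower in EV and higher in siCtrl for the members with an element. The set without an element holds all 12 PERK-ATF4 and all 4 CREB3 family members. The sets therefore differ in branch as well, and these medians do not separate the element from the branch. In P3 the medians were 0.46 with an element and 0.38 without, and in siWDR77 1.14 and 0.96. The UPRE core TGACGTGG was found in 0.612% of windows and in 2 members, DNAJC10 and HYOU1, in HYOU1 overlapping an ERSE-II. The pattern TGATGNAAT, sought as the ATF4 element with its last base fixed as T, was found in 0.888% of windows. The androgen element, AGAACA followed by TGTTCT after 3 bases of any kind, was found in 0.00285%. Neither was found in the windows of the 44 members. Forms with another last base or other changed letters, and sites outside the 250 bases, were not sought, so these members may still hold such elements.

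In the PERK-ATF4 branch 5 members rose with hormone in both control arms (EIF2AK3, TRIB3, PPP1R15B, GDF15 and CEBPB), while PSAT1, ASNS and ATF4 fell in EV. EIF2AK3 encodes PERK and lies on the minus strand at chr2:88556741-88627576. It read 41.9, 46.6 and 46.8 CPM in EV_vehicle against 83.6, 86.9 and 80.3 in EV_R1881, and 47.3, 54.8 and 51.2 in siCtrl_vehicle against 76.0, 80.7 and 74.9 in siCtrl_R1881. The groups did not overlap, and the rise was 0.89 ± 0.065 (SE, edgeR adjusted p = 2.33e-15) on the log2 scale in EV and 0.60 ± 0.067 (SE, edgeR adjusted p = 4.66e-08) in siCtrl.

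ATF4, the transcription factor of the branch, lies on the plus strand at chr22:39519695-39522685 and is controlled largely through translation. It read 345, 347 and 345 CPM in EV_vehicle and 312, 281 and 306 in EV_R1881, so all 3 R1881 libraries lay lower. In siCtrl it read 263, 312 and 233 CPM with vehicle and 372, 375 and 384 with R1881, so all 3 lay higher. ATF4 fell by 0.21 ± 0.053 on the log2 scale in EV (SE, edgeR adjusted p = 0.00117) and rose by 0.48 ± 0.078 (SE, edgeR adjusted p = 2.99e-05) in siCtrl, or by 0.60 ± 0.063 (SE) without S35.

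DDIT3 encodes CHOP, the factor tied to cell death under lasting stress, and lies on the minus strand at chr12:57516588-57521737. It read 13.7, 10.98 and 10.9 CPM in EV_vehicle and 11.6, 10.7 and 13.2 in EV_R1881, and 12.5, 19.4 and 11.1 in siCtrl_vehicle and 15.5, 13.4 and 13.0 in siCtrl_R1881. The groups overlapped in both arms. The fitted change was 0.0045 ± 0.12 (SE, edgeR adjusted p = 0.98) in EV and -0.036 ± 0.16 (SE, edgeR adjusted p = 0.871) in siCtrl, and 0.24 ± 0.13 (SE, edgeR adjusted p = 0.137) in siCtrl without S35. In GENCODE 29, 39.6% of its exon bases overlap other genes, MARS and MBD6 among them, so reads of these genes may be counted with it or lost from it.

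PSAT1 and ASNS make serine and asparagine and are known ATF4 targets. PSAT1 read 260.3, 271 and 246 CPM in EV_vehicle and 161, 147 and 132 in EV_R1881, and fell by 0.82 ± 0.067 on the log2 scale (SE, edgeR adjusted p = 1.24e-11). ASNS read 10.9, 9.43 and 11.9 and 8.03, 6.33 and 7.14 CPM, and fell by 0.58 ± 0.14 (SE, edgeR adjusted p = 0.00068). Neither gene's groups overlapped in EV. In siCtrl the fitted changes were 0.12 ± 0.11 (SE, edgeR adjusted p = 0.402) for PSAT1 and 0.24 ± 0.13 (SE, edgeR adjusted p = 0.139) for ASNS. ASNS shares 44.6% of its exon bases with another annotated gene.

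CHAC1, which degrades glutathione and is induced through ATF4, read 12.2, 9.10 and 10.54 CPM in EV_vehicle and 9.46, 6.62 and 9.63 in EV_R1881, groups that overlapped, with a fitted change of -0.30 ± 0.14 (SE, edgeR adjusted p = 0.0658). In siCtrl it read 10.2, 9.95 and 12.05 with vehicle and 16.9, 14.5 and 23.3 with R1881, and rose by 0.75 ± 0.19 (SE, edgeR adjusted p = 0.00443). TRIB3, a pseudokinase that restrains ATF4, rose in both arms, by 0.63 ± 0.061 in EV and 0.86 ± 0.079 in siCtrl (SE). The phosphatase subunits that reverse the eIF2alpha signal were PPP1R15B, the constitutive form, which rose by 0.85 ± 0.055 and 0.94 ± 0.056, and PPP1R15A, the stress-induced GADD34, which rose by 0.70 ± 0.18 in EV. PPP1R15A changed by 0.39 ± 0.18 (SE, edgeR adjusted p = 0.0758) in siCtrl, and by 0.57 ± 0.19 (SE, edgeR adjusted p = 0.0125) without S35.

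GDF15, a secreted stress cytokine, was the most strongly moved gene of this branch. It read 353, 349 and 387 CPM in EV_vehicle and 1209, 1251 and 1465 in EV_R1881, a rise of 1.85 ± 0.064 (SE, edgeR adjusted p = 3.43e-20) on the log2 scale. In siCtrl it read 180.4, 380.1 and 162 CPM with vehicle, the 380 being S35, and 889.8, 915 and 839 with R1881. No vehicle library reached an R1881 library. The rise in siCtrl was 1.87 ± 0.29 (SE, edgeR adjusted p = 0.000572), and 2.36 ± 0.061 (SE) without S35. The C/EBP factors moved less: CEBPB rose by 0.25 ± 0.097 in EV and 0.39 ± 0.10 in siCtrl, and CEBPG, a partner of ATF4, changed by 0.10 ± 0.063 (SE, edgeR adjusted p = 0.192) in EV and rose by 0.51 ± 0.069 in siCtrl. The call of CEBPB in EV was lost without EV_vehicle S1 (edgeR adjusted p = 0.0694), EV_R1881 S16 (0.103) or EV_R1881 S30 (0.132).

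**Figure D3:**
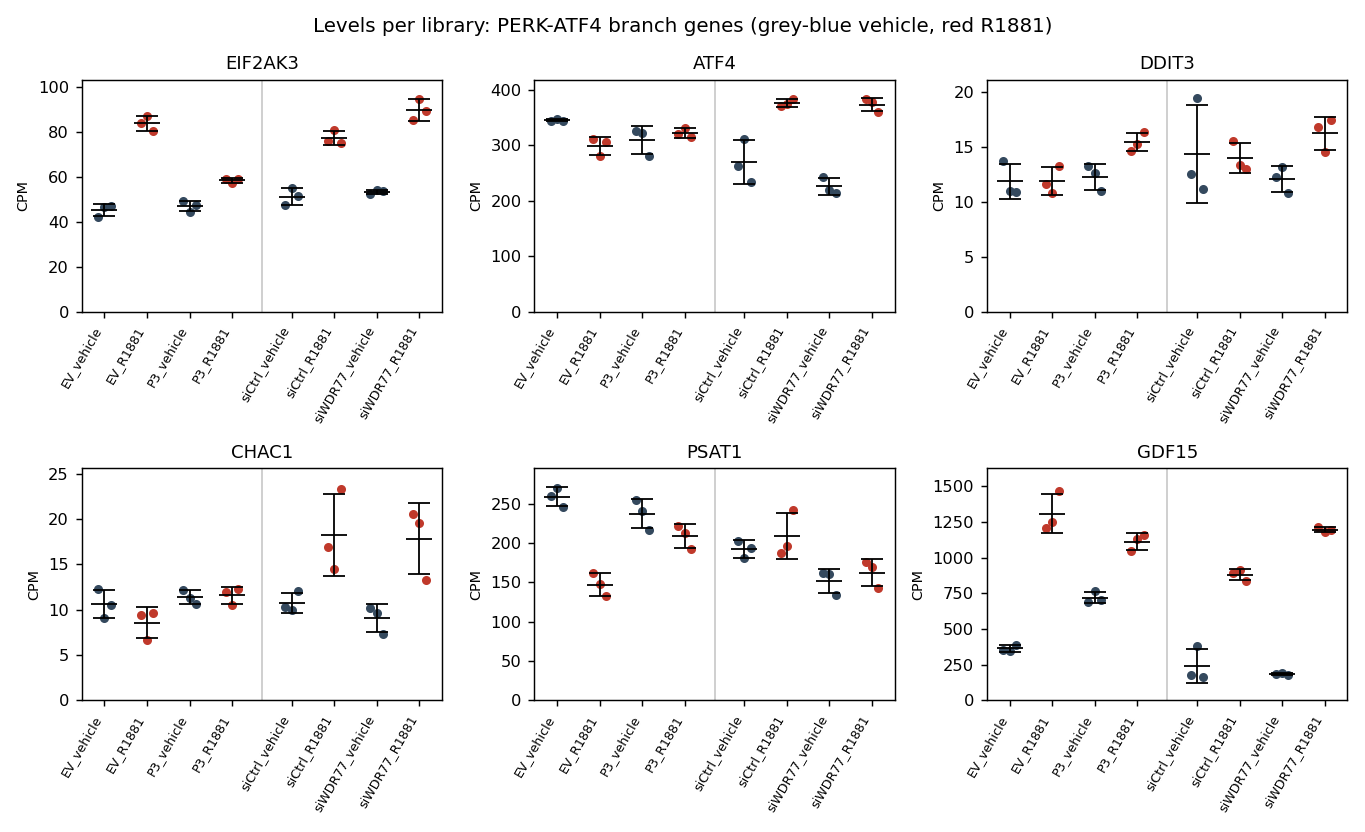
Level of 6 PERK-ATF4 branch genes in CPM (vertical axis, from 0) in each library of the 8 groups (horizontal axis), with vehicle in dark blue-grey, R1881 in red and bars at the mean ± SD of 3 libraries. PSAT1 falls from 246 to 271 CPM in EV_vehicle to 132 to 161 in EV_R1881 but stays at 192 to 222 in P3_R1881, and the single high GDF15 and DDIT3 points in siCtrl_vehicle are both S35.

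The CREB3 family are ER-membrane factors that are cut in the Golgi like ATF6 and serve secretory cells. CREB3L4, known for its expression in prostate, read 76.9, 75.5 and 75.0 CPM in EV_vehicle against 229, 216 and 259 in EV_R1881, and 57.4, 47.7 and 58.4 in siCtrl_vehicle against 260.1, 259 and 234 in siCtrl_R1881. The groups were far apart, and the rise was 1.63 ± 0.063 (SE, edgeR adjusted p = 5.1e-24) on the log2 scale in EV and 2.204 ± 0.078 (SE, edgeR adjusted p = 1.1e-16) in siCtrl. CREB3L2 rose by 1.059 ± 0.066 in EV and 1.74 ± 0.067 in siCtrl, and CREB3 by 0.92 ± 0.069 and 0.92 ± 0.076 (SE).

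CREB3L1 had the largest fitted rises of all members but very few reads. No vehicle library read above 0.457 CPM, so the gene passed the filter on low counts only through R1881 libraries. Its rises are therefore not independent of that filter. Its 3 libraries together held 10 counts in EV_vehicle and 88 in EV_R1881, and 11 in siCtrl_vehicle and 72 in siCtrl_R1881. It read 0.273, 0.0816 and 0.16 CPM in EV_vehicle against 1.90, 1.63 and 1.57 in EV_R1881, groups that did not overlap. The fitted rise was 3.32 ± 0.53 (SE, edgeR adjusted p = 1.21e-06) on the log2 scale in EV and 2.98 ± 0.51 (SE, edgeR adjusted p = 2.69e-05) in siCtrl, with SEs several times those of the other family members.

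Of the other folding factors, DNAJC10 (ERdj5), a reductase that opens disulfides of proteins to be degraded, rose most. It read 78.6, 86.6 and 84.1 CPM in EV_vehicle against 244, 239.7 and 226 in EV_R1881, and 66.5, 67.3 and 70.0 in siCtrl_vehicle against 297, 291 and 282 in siCtrl_R1881. No libraries overlapped, and the rise was 1.51 ± 0.056 (SE, edgeR adjusted p = 5.09e-25) in EV and 2.09 ± 0.061 (SE, edgeR adjusted p = 2.98e-19) in siCtrl on the log2 scale. The disulfide isomerases P4HB and PDIA3 rose by 0.90 ± 0.049 and 0.72 ± 0.05 in EV and by 1.03 ± 0.056 and 0.84 ± 0.064 in siCtrl (SE). The lectin chaperone CANX rose by 0.54 ± 0.048 and 0.80 ± 0.058, and WFS1, an ER membrane protein that restrains the response, by 0.68 ± 0.066 and 0.98 ± 0.064.

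Expressed per kilobase of exon, the members differ widely in abundance. In EV_vehicle the highest were CALR at 442, HSPA5 at 217, GDF15 at 174, P4HB at 159.9, HSP90B1 at 158, ATF4 at 137 and PDIA3 at 121 CPM per kilobase. The lowest were PPP1R15A at 1.46, DERL3 at 0.121 and CREB3L1 at 0.0425. In EV_R1881 GDF15 led at 627 CPM per kilobase, ahead of CALR at 526, HSPA5 at 355, P4HB at 299 and HSP90B1 at 229.9. ERN1 and XBP1 stood at 3.97 and 52.2 CPM per kilobase in EV_vehicle and at 15.4 and 83.2 in EV_R1881.

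Cells with WDR77-peptide 3 differed from EV cells in few members without hormone, and had lower levels of most members with it. With vehicle, 2 of 47 members were higher and 7 lower in P3 than in EV, where 15.8% of all genes were called, 7.93% higher and 7.88% lower, so the share of members called was near that of all genes. The 2 higher were GDF15 and ERN1, and the 7 lower were HSPA5, CALR, PDIA6 and CRELD2 of the ATF6 branch, ATF4, P4HB and WFS1.

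GDF15 read 691, 767 and 701 CPM in P3_vehicle against 353, 349 and 387 in EV_vehicle, a difference of 0.99 ± 0.062 (SE, edgeR adjusted p = 8.03e-12) on the log2 scale with no overlap. HSPA5 read 745, 719 and 669.6 against 845, 840.2 and 854, all 3 P3 libraries lower, with a difference of -0.25 ± 0.047 (SE, edgeR adjusted p = 0.000219). CALR read 1105, 1062 and 976 CPM against 1207, 1184 and 1207, a difference of -0.19 ± 0.047 (SE, edgeR adjusted p = 0.00385). These 3 calls held whichever of the 6 libraries compared was left out.

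The other 6 calls did not hold in this way. ERN1 read 52.6, 47.6 and 52.8 CPM in P3_vehicle, above all of EV_vehicle, by 0.24 ± 0.068 (SE, edgeR adjusted p = 0.0114), but the edgeR adjusted p was 0.0768 without EV_vehicle S15 and 0.0621 without P3_vehicle S5. CRELD2 read 43.0, 41.6 and 42.5 CPM in P3_vehicle against 48.6, 49.99 and 47.7 in EV_vehicle, and WFS1 62.1, 59.1 and 55.8 against 68.6, 63.5 and 72.8, without overlap. CRELD2, WFS1, P4HB, PDIA6 and ATF4 gave differences of -0.20, -0.21, -0.15, -0.19 and -0.16 on the log2 scale. The count of 9 members fell to 4 without EV_vehicle S1, to 5 without EV_vehicle S29 and to 3 without P3_vehicle S5. XBP1, ATF6 and EIF2AK3 gave fitted differences of -0.02, -0.11 and 0.054 with SE of 0.056, 0.062 and 0.066 and were not called.

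R1881 raised 37 of 47 members and lowered 1 in P3 cells, where 21% of all genes were called, 13.0% higher and 7.96% lower. By branch 10 of 12 IRE1-XBP1 members rose (median log2 change 0.56), 12 of 14 ATF6 members (0.42), 6 of 12 PERK-ATF4 members (0.19), all 4 of the CREB3 family (0.67) and all 5 other folding factors (0.47). ERN1 read 91.2, 97.0 and 109.9 CPM in P3_R1881 against 52.6, 47.6 and 52.8 in P3_vehicle, a rise of 0.96 ± 0.065 (SE, edgeR adjusted p = 1.49e-15). XBP1 read 212, 204 and 212 against 167, 159 and 142 CPM and rose by 0.42 ± 0.056 (SE, edgeR adjusted p = 1.02e-07). DNAJB9 read 34.8, 33.97 and 37.2 against 15.7, 16.3 and 13.4 CPM and DNAJC10 153, 142 and 159.7 against 84.4, 84.6 and 81.7, with rises of 1.23 ± 0.094 and 0.86 ± 0.056 (SE). In each of these 4 genes the hormone-treated libraries lay above the vehicle libraries, which for DNAJB9 and DNAJC10 was a condition for naming them.

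The member that fell in P3 was PSAT1, which read 254, 241 and 217 CPM with vehicle and 222, 213 and 192 with R1881. Its groups overlapped, and it fell by 0.18 ± 0.066 on the log2 scale (SE, edgeR adjusted p = 0.0449). That call was lost without P3_vehicle S19 (0.221), P3_vehicle S33 (0.0697) or P3_R1881 S6 (0.242). DDIT3 read 13.2, 12.6 and 10.96 CPM with vehicle and 14.6, 15.3 and 16.3 with R1881, a rise of 0.33 ± 0.12 (SE, edgeR adjusted p = 0.0359). The DDIT3 call was lost when any of P3_vehicle S33 and S5 or P3_R1881 S20, S34 and S6 was left out (edgeR adjusted p 0.0675 to 0.181), and that of CREB3L1 (1.35 ± 0.50, SE) without any of the same 5 (0.0622 to 0.254). With no filter on low counts the CREB3L1 call was also lost (edgeR adjusted p = 0.0863). ATF6 and ATF4 gave 0.095 ± 0.062 (SE, edgeR adjusted p = 0.32) and 0.06 ± 0.053 (SE, edgeR adjusted p = 0.498), with overlapping groups for both.

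With R1881 in both arms, 34 of 47 members were lower and 4 higher in P3 than in EV, where 37% of all genes were called, 18.1% higher and 18.9% lower. The median difference over the members was -0.40 on the log2 scale, against a median of 0.025 over all genes. The lower members included 10 of 12 in the IRE1-XBP1 branch, 12 of 14 in the ATF6 branch, 4 of 12 in the PERK-ATF4 branch, 3 of 4 in the CREB3 family and all 5 other folding factors. The 4 higher members were all of the PERK-ATF4 branch: PSAT1, ASNS, CHAC1 and DDIT3.

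ERN1 was lowest relative to EV among the called members, at 91.2, 97.0 and 109.9 CPM against 166, 166 and 169, a difference of -0.75 ± 0.063 (SE, edgeR adjusted p = 5.51e-13) on the log2 scale. CREB3L4 read 151, 140.4 and 149.8 against 229, 216 and 259 CPM, DNAJC10 153, 142 and 159.7 against 244, 239.7 and 226, and DNAJC3 129, 117 and 116 against 189, 197 and 174. All P3 libraries lay below all EV libraries in these 4 genes, which for the last 3 was a condition for naming them. The last 3 differed by -0.67 ± 0.06, -0.64 ± 0.054 and -0.63 ± 0.056 (SE). HSPA5 read 973, 946 and 1011 CPM in P3_R1881, below all of EV_R1881, a difference of -0.51 ± 0.047 (SE, edgeR adjusted p = 7.93e-12).

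PSAT1 read 222, 213 and 192 CPM in P3_R1881, above all EV_R1881 libraries, by 0.51 ± 0.067 (SE, edgeR adjusted p = 4.6e-07). ASNS read 9.91, 11.8 and 8.04 CPM, CHAC1 11.9, 10.52 and 12.3 and DDIT3 14.6, 15.3 and 16.3 in the same group, each above the 3 EV_R1881 libraries. The differences were 0.46 ± 0.14 (SE, edgeR adjusted p = 0.00933) for ASNS, 0.44 ± 0.14 (SE, edgeR adjusted p = 0.012) for CHAC1 and 0.38 ± 0.12 (SE, edgeR adjusted p = 0.011) for DDIT3. Without EV_R1881 S2 the edgeR adjusted p became 0.078, 0.171 and 0.087. ASNS was also lost without P3_R1881 S34 (0.147), CHAC1 without P3_R1881 S20 (0.0588) or S6 (0.0505), and DDIT3 without P3_R1881 S6 (0.0526).

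The response itself was tested as the difference between the R1881 response in P3 and that in EV. It was lower in P3 for 26 of 47 members and higher for 2, where 22.6% of all genes were called, 11.5% higher and 11.1% lower. The 26 were 7 of 12 IRE1-XBP1, 8 of 14 ATF6, 4 of 12 PERK-ATF4, 3 of 4 CREB3 family members and 4 of 5 other folding factors. GDF15 differed most among the called members, by -1.22 ± 0.087 (SE, edgeR adjusted p = 8.03e-12) on the log2 scale: its R1881 response was 1.85 in EV and 0.63 in P3, with the higher P3_vehicle level entering the latter. In a fit of all 24 libraries the GDF15 response in P3 was not called (edgeR adjusted p = 0.0573). ERN1 differed by -0.99 ± 0.092 (SE, edgeR adjusted p = 2.46e-11), CREB3L4 by -0.80 ± 0.088 (SE, edgeR adjusted p = 1.96e-09) and DNAJB9 by -0.69 ± 0.13 (SE, edgeR adjusted p = 0.000108).

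The 2 members with a higher response in P3 were PSAT1, by 0.63 ± 0.094 (SE, edgeR adjusted p = 5.38e-06), and ATF4, by 0.27 ± 0.075 (SE, edgeR adjusted p = 0.00739). Both had fallen with R1881 in EV. The ATF4 call was lost without EV_R1881 S2 (edgeR adjusted p = 0.0659) or P3_R1881 S34 (0.0631). XBP1 differed by -0.25 ± 0.079 (SE, edgeR adjusted p = 0.0178), and this call was lost without EV_R1881 S16 (0.0782) or P3_vehicle S19 (0.0789). EIF2AK3 differed by -0.57 ± 0.092 (SE, edgeR adjusted p = 4.46e-06), whereas ATF6 gave -0.089 ± 0.088 (SE, edgeR adjusted p = 0.528). The androgen target KLK3 also moved, and read 4229, 4390 and 4382 CPM in P3_R1881 against 6945, 6431 and 7221 in EV_R1881. With vehicle KLK3 was higher in P3 than in EV, by 0.54 ± 0.047 (SE) on the log2 scale. The median absolute response of all genes was 0.37 in EV and 0.18 in P3, against 0.71 and 0.42 for the members. The part of a general change in the hormone response in the differences of the members was not tested.

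**Figure D4:**
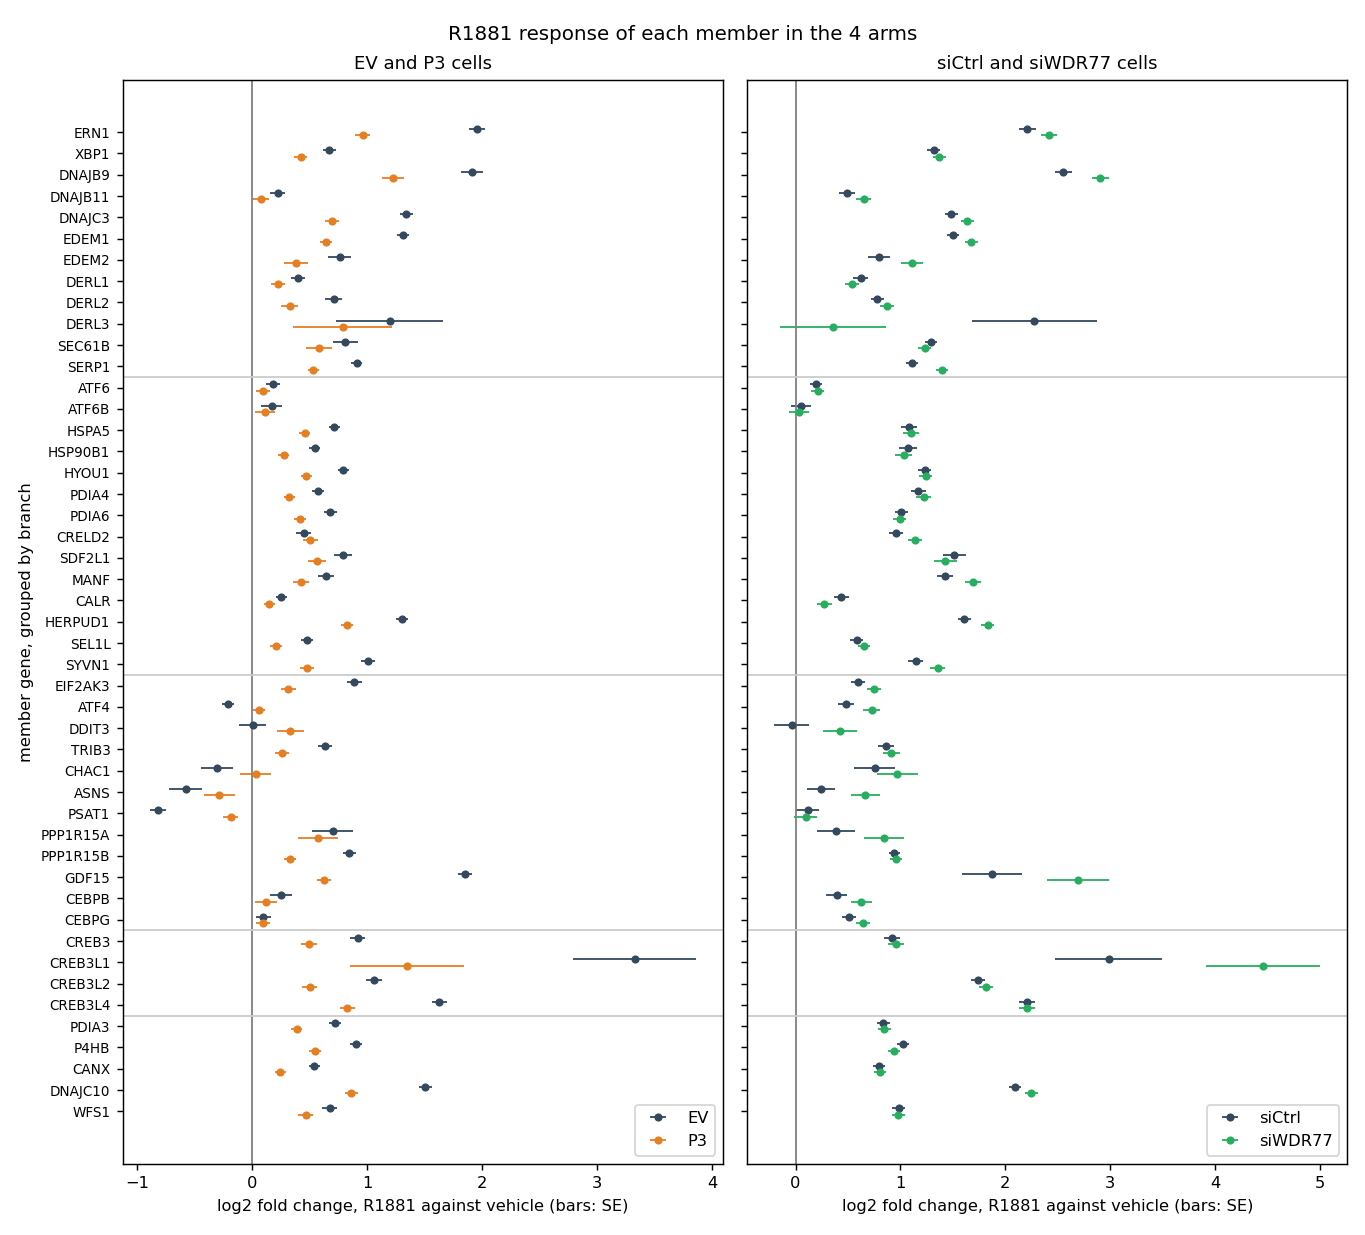
Log2 fold change of R1881 against vehicle (horizontal axis, bars SE) for each of the 47 members (rows, grouped by branch), in EV and P3 cells on the left and in siCtrl and siWDR77 cells on the right. The P3 points lie left of the EV points for most members, except PSAT1, ASNS, CHAC1, ATF4, DDIT3 and CRELD2, while the siCtrl and siWDR77 points lie close together for most members apart from GDF15 and the thinly counted DERL3 and CREB3L1.

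R1881 also raised most members after knockdown of WDR77. It raised 44 of 47 members in siWDR77 cells and lowered none, where 53.2% of all genes were called, 27.7% higher and 25.5% lower. The risers were 11 of 12 IRE1-XBP1 (median log2 change 1.30), 13 of 14 ATF6 (1.12) and 11 of 12 PERK-ATF4 members (0.74), all 4 of the CREB3 family (2.01) and all 5 other folding factors (0.94). ERN1 read 42.2, 39.8 and 37.4 CPM with vehicle and 222, 214 and 202 with R1881, and rose by 2.42 ± 0.08 (SE, edgeR adjusted p = 2.93e-17). XBP1 read 127, 127 and 119 and 331, 342 and 291 CPM and rose by 1.37 ± 0.063 (SE, edgeR adjusted p = 1.73e-15). The vehicle and R1881 libraries were far apart in both genes.

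DNAJB9 rose from 13.3, 13.0 and 12.8 to 94.4, 104 and 95.4 CPM, by 2.90 ± 0.082 (SE, edgeR adjusted p = 1.06e-19), and GDF15 from 185, 191 and 178 to 1215, 1180 and 1192, by 2.697 ± 0.30 (SE, edgeR adjusted p = 5.75e-05). EIF2AK3, ATF6 and ATF4 rose by 0.75 ± 0.066, 0.21 ± 0.057 and 0.73 ± 0.078 (SE), with no overlap between vehicle and R1881 libraries. CREB3L1 rose from 6 counts over the 3 vehicle libraries to 124 over the 3 R1881 libraries. DDIT3 read 12.2, 13.2 and 10.8 CPM with vehicle and 16.8, 14.5 and 17.4 with R1881, and rose by 0.43 ± 0.16 (SE, edgeR adjusted p = 0.0348). That call was lost without siWDR77_vehicle S23 or S9 or siWDR77_R1881 S10 or S38 (edgeR adjusted p 0.0727 to 0.124). DERL3, ATF6B and PSAT1 were not called, with fitted changes of 0.36 ± 0.50, 0.036 ± 0.097 and 0.097 ± 0.11 (SE).

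The responses in siWDR77 and siCtrl were not told apart for any member. The test of the difference called 0 of 47 members and 0% of all genes in edgeR, with 10 members at an unadjusted p under 0.05, and DESeq2 also called 0 members. The smallest edgeR adjusted p was that of SERP1, at 0.241 for a difference of 0.28 ± 0.078 (SE). The difference was 0.20 ± 0.11 for ERN1, 0.054 ± 0.088 for XBP1, 0.013 ± 0.082 for ATF6, 0.16 ± 0.094 for EIF2AK3 and 0.019 ± 0.11 for HSPA5 on the log2 scale. GDF15 differed by 0.83 ± 0.39, and by 0.31 ± 0.075 (SE, edgeR adjusted p = 0.0757) without S35.

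With vehicle alone, siWDR77 and siCtrl differed in 0 of 47 members in edgeR, where 1.53% of all genes were called, 0.682% higher and 0.844% lower. At an unadjusted p under 0.05 there were 18 members, and DESeq2 called 2. The count was also 0 without siCtrl_vehicle S35. The lowest edgeR adjusted p was 0.1002 for CEBPB, with a fitted difference of -0.34 ± 0.10 (SE). The median of the 12 PERK-ATF4 members was -0.26 on the log2 scale against -0.0037 over all genes, and -0.16 against 0.0042 without S35. ATF4 read 244, 219.7 and 215 CPM against 263, 312 and 233, where 312 is S35, with a fitted difference of -0.25 ± 0.078 (SE, edgeR adjusted p = 0.122), or -0.13 ± 0.062 (SE, adjusted p = 0.336) without S35. ATF4 was called at an edgeR adjusted p of 0.00993 without siCtrl_vehicle S7, when 3 members in all were called.

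With R1881, 9 of 47 members were higher and none lower in siWDR77 than in siCtrl, where 7.22% of all genes were called, 3.90% higher and 3.31% lower. They were DNAJB9, SERP1, DERL2 and DNAJC3 of the IRE1-XBP1 branch, SEL1L and HERPUD1 of the ATF6 branch, EIF2AK3, DNAJC10 and CANX. The differences ran from 0.20 to 0.32 on the log2 scale. DNAJB9 read 94.4, 104 and 95.4 CPM against 81.7, 76.8 and 76.0, SERP1 535, 570.4 and 504 against 457, 444 and 435, DERL2 87.5, 90.3 and 87.0 against 75.9, 69.9 and 74.5, and DNAJC10 331, 374 and 336 against 297, 291 and 282. In these 4 genes every siWDR77 library lay above every siCtrl library, which was a condition for naming them.

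Their differences were 0.32 ± 0.072 (SE, edgeR adjusted p = 0.00659) for DNAJB9, 0.27 ± 0.055 (SE, edgeR adjusted p = 0.00315) for SERP1, 0.27 ± 0.063 (SE, edgeR adjusted p = 0.0108) for DERL2 and 0.26 ± 0.058 (SE, edgeR adjusted p = 0.00675) for DNAJC10. Most of these calls depended on single libraries. Without siWDR77_R1881 S24 only SERP1 remained called, and DNAJB9, DERL2 and DNAJC10 had edgeR adjusted p-values of 0.057, 0.0558 and 0.0686. DERL2 was also lost without siCtrl_R1881 S36 (0.0808). The count was 4 without siCtrl_R1881 S36 and 4 without siCtrl_R1881 S8. ERN1, XBP1, ATF6, ATF4 and HSPA5 gave fitted differences of 0.082 ± 0.074, 0.092 ± 0.061, 0.14 ± 0.058, -0.012 ± 0.078 and 0.16 ± 0.074 (SE) and were not called.

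The R1881 responses of the 2 control arms, EV and siCtrl, differed in their size for many members and in direction for ATF4. In a fit of all 24 libraries, 24 of 47 members had a higher response in siCtrl and 1 a lower response, where 16.8% of 18999 genes were called, 10.7% higher and 6.04% lower. Without siCtrl_vehicle S35 these were 23 and 1, of which 21 calls were shared. Study, plasmid or siRNA transfection, and any difference of day or culture cannot be told apart in this contrast. KLK3 with vehicle read 1286, 1305 and 1389 CPM in EV and 204, 52.6 and 203 in siCtrl, each scaled within its own study, so the vehicle cells of the studies also differed in an androgen target, and the part of this in the result was not tested.

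CHAC1 differed by 1.08 ± 0.25 (SE, edgeR adjusted p = 0.00317), PSAT1 by 0.95 ± 0.15 (SE, edgeR adjusted p = 0.000149) and ASNS by 0.84 ± 0.20 (SE, edgeR adjusted p = 0.0021) on the log2 scale. ATF4 differed by 0.71 ± 0.099 (SE, edgeR adjusted p = 4.13e-06), with a fall in EV and a rise in siCtrl. The differences of CHAC1, PSAT1, ASNS and ATF4 were 0.97, 0.86, 0.74 and 0.78 without S35 and stayed called. Among the ER genes, MANF read 65.5, 66.9 and 54.8 CPM in EV_vehicle and 97.1, 93.2 and 102 in EV_R1881, and 46.8, 37.7 and 41.5 in siCtrl_vehicle and 110.3, 113 and 115 in siCtrl_R1881. The response of MANF differed by 0.80 ± 0.11 (SE, edgeR adjusted p = 1.18e-06), SDF2L1 by 0.74 ± 0.13 (SE, edgeR adjusted p = 0.000127) and XBP1 by 0.67 ± 0.087 (SE, edgeR adjusted p = 5.03e-07). Without S35 these 3 differences were 0.68, 0.62 and 0.59 and stayed called. HSPA5 gave 0.39 ± 0.089 and 0.22 without S35 (edgeR adjusted p = 0.024), and DNAJB11, SERP1, PDIA6 and CANX lost their calls without it. The member with the lower response was EIF2AK3, by -0.28 ± 0.092 (SE, edgeR adjusted p = 0.0333), a call lost when any of 6 of the 12 libraries was left out (adjusted p 0.0558 to 0.125 for EV_vehicle S1, EV_R1881 S16 and S2, siCtrl_vehicle S7, and siCtrl_R1881 S22 and S8). ERN1 gave 0.27 ± 0.11 (SE, edgeR adjusted p = 0.0697), and 0.35 (edgeR adjusted p = 0.00916) without S35. GDF15 gave 0.04 ± 0.29 (SE, edgeR adjusted p = 0.953), and 0.48 (edgeR adjusted p = 0.000131) without S35.

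A further 73 genes of the same pathways were followed outside the 47 members. R1881 raised 42 and lowered 12 of them in EV, where 24.9% of all genes rose and 26.4% fell, and 38 and 5 in P3, where 13.0% rose and 7.96% fell. It raised 50 and lowered 4 in siCtrl, where 25.7% of all genes rose and 25.4% fell, and 56 and 7 in siWDR77, where 27.7% rose and 25.5% fell. Without siCtrl_vehicle S35 the counts in siCtrl were 51 and 4. Of 15 further genes known as XBP1-linked, 14 rose in EV, P3 and siCtrl and 15 in siWDR77, and none fell. They serve ER translocation and signal cleavage, apart from SEC24D. SEC24D, a coat protein of vesicles leaving the ER, rose by 1.84 ± 0.065 in EV, 0.98 ± 0.064 in P3, 2.50 ± 0.07 in siCtrl and 2.73 ± 0.07 in siWDR77 (SE). SEC11C, a catalytic subunit of the signal peptidase, rose by 1.58 ± 0.058, 1.05 ± 0.058, 2.15 ± 0.058 and 2.02 ± 0.058 in the same order. Of 12 further ER degradation genes 8, 8, 8 and 9 rose in EV, P3, siCtrl and siWDR77, and UBE2G2 fell in EV, P3 and siWDR77. EDEM3, a mannosidase that marks misfolded glycoproteins, rose by 2.07 ± 0.057 in EV and 1.05 ± 0.056 in P3, and by 2.34 ± 0.099 and 2.58 ± 0.10 in siCtrl and siWDR77.

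Of 10 further ER oxidation and chaperone genes, 9 rose in EV and 8 in each of the other arms, and none fell. ERO1A, the oxidase that supplies disulfides, rose by 1.87 ± 0.071 in EV, and PDIA5 by 2.43 ± 0.075 in siCtrl (SE). Of 6 genes that process ATF6 or regulate IRE1, 2 rose and 1 fell in EV, 1 rose in P3, 3 in siCtrl and 4 in siWDR77. For comparison, 24.9% of all genes rose and 26.4% fell in EV, and 13.0% and 7.96% in P3. These shares were 25.7% and 25.4% in siCtrl, and 27.7% and 25.5% in siWDR77. Of 12 genes for eIF2alpha kinases and the eIF2 and eIF2B complexes, 4 rose and 1 fell in EV and 3 rose in P3. Taken in either direction, these shares were near those of all genes called, 51.4% and 21%. In siCtrl 8 of them rose (7 without S35) and in siWDR77 10, and none fell, where 25.7% and 27.7% of all genes rose.

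Of 18 further ATF4 targets, 5 rose and 9 fell in EV (median log2 change -0.33), 4 rose and 4 fell in P3 (-0.028), 9 rose and 4 fell in siCtrl (0.30) and 10 rose and 6 fell in siWDR77 (0.45). Over all genes, 24.9% rose and 26.4% fell in EV, and 13.0% and 7.96% in P3. The same shares were 25.7% and 25.4% in siCtrl, and 27.7% and 25.5% in siWDR77. The amino acid transporter SLC7A5 fell by 1.84 ± 0.15 in EV, by 0.43 ± 0.13 in P3, by 0.71 ± 0.15 in siCtrl and by 1.12 ± 0.16 in siWDR77 (SE). PHGDH, which starts serine synthesis upstream of PSAT1, fell by 1.05 ± 0.049 in EV, by 0.28 ± 0.049 in P3, by 0.26 ± 0.095 in siCtrl and by 0.49 ± 0.095 in siWDR77. ALDH1L2, of mitochondrial folate metabolism, fell by 1.44 ± 0.52 in siCtrl and by 1.45 ± 0.46 in siWDR77. The response differed between siCtrl and EV for 11 of the 18, all 11 higher in siCtrl with and without S35, where 16.8% of all genes were called and 10.7% were higher. It differed between P3 and EV for 10, of which 8 were higher and 2 lower in P3, where 22.6% of all genes were called, 11.5% higher and 11.1% lower.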

How the data were processed

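Poly(A) RNA of 24 LNCaP cultures, 3 biological replicates in each of 8 groups, was sequenced. Per the submitters' processing notes the authors used bcl2fastq 2.20, STAR 2.7.9a and featureCounts of Subread 1.6.4 with genome build GRCh38.p7. The authors deposited unnormalised counts, 1 whole number per gene and library. How the counting handled strand and multiply aligned reads, and which gene annotation it used, is not given here by any source, so genes that overlap on the annotation may share reads.

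Columns were matched to samples by their number. The columns of P3_R1881 also carry the word siRNA and were matched by number, as the other columns were. The counts were fitted per study (12 libraries, 17772 and 17893 genes after edgeR's filterByExpr) with edgeR 4.0.16 in R 4.3.3, using TMM scaling, a mean per group and the robust quasi-likelihood F test, and p-values were adjusted by Benjamini-Hochberg over all genes tested. The contrast between siCtrl and EV used all 24 libraries (18999 genes). A gene was called at an adjusted p under 0.05. The SE is the log2 change divided by the square root of F. CPM used TMM-scaled library sizes within each study, and lengths were merged GENCODE 29 exons. Total counts from 16665915 a library leave spread between cultures as the main error except for CREB3L1 and DERL3. The fit was tested on simulated data with 200 changed genes.

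The members, branches and pathway lists were chosen with earlier results of these data known. Values in every library are given for the 3 sensor genes, XBP1, ATF4 and DDIT3, and for members among the 4 largest changes per direction that were called and did not overlap. For members named by this last rule, the lack of overlap was fixed by the rule and adds no support to the call. Of the other pathway genes, the 2 largest called changes per direction in each R1881 response were named. UBE2G2, and the levels of HSPA5, CALR, HERPUD1, CREB3L4, DERL3 and CHAC1, were named after their values were seen. Alternatives were RLE scaling, no filter, DESeq2 1.42.0, other sets of libraries, a block and leaving out each library. Protein ends were planned as a description and not analysed here.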

Additional observations from a re-analysis of the deposited data

Results flagged for a closer look

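The R1881 response differed between P3 and EV cells for 28 of 47 members in the edgeR test of the difference, where 22.6% of all genes were called. Among the called members, those with the largest differences on the log2 scale were GDF15 at -1.22, ERN1 at -0.99, CREB3L4 at -0.80 and DNAJB9 at -0.69, all lower in P3. PSAT1 at 0.63 and ATF4 at 0.27 were higher in P3.

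The response differed between siCtrl and EV cells for 25 of 47 members, where 16.8% of all genes were called. CHAC1 at 1.08, PSAT1 at 0.95, ASNS at 0.84 and MANF at 0.80 were higher in siCtrl on the log2 scale, and EIF2AK3 at -0.28 was lower. The kind of transfection and the study cannot be told apart here.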

How the results depend on the processing

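Among the single-gene values recomputed under the alternatives, 1283 kept their side of the threshold, 68 were no longer called and 5 became called. No value called in the main fit or in the alternative changed sign. Values called in neither could change sign, as DDIT3 in siCtrl did, from -0.036 to 0.24 without S35. The count of members called for P3 against EV with vehicle was 9, and it was 4 without EV_vehicle S1, 5 without EV_vehicle S29 and 3 without P3_vehicle S5, within a range of 3 to 11 over the libraries left out. For siWDR77 against siCtrl with vehicle the count of 0 became 5 with no filter on low counts, 2 with DESeq2, 3 in a fit of all 24 libraries, 1 in a fit of the 6 libraries compared and 3 without siCtrl_vehicle S7, over a range of 0 to 3 with a library left out. For siWDR77 against siCtrl with R1881 the count of 9 became 4 without siCtrl_R1881 S36, 4 without siCtrl_R1881 S8 and 1 without siWDR77_R1881 S24, with a range of 1 to 8. The cause was not tested.

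Leaving out a library gave 41 to 44 called members for the response in EV, 33 to 37 in P3, 42 to 43 in siCtrl and 43 to 44 in siWDR77. It gave 36 to 39 for P3 against EV with R1881, 27 to 32 for the difference of the P3 and EV responses, and 21 to 26 for that of siCtrl and EV. The groups share no replicate number in the labels. A replicate block by the run of the sample numbers gave 43, 38, 42 and 44 members for the responses in EV, P3, siCtrl and siWDR77. With the block, P3 against EV gave 12 with vehicle and 41 with R1881, siWDR77 against siCtrl gave 0 and 9, and the differences of responses gave 31 for P3 and EV, 0 for siWDR77 and siCtrl and 26 for siCtrl and EV. Libraries of the same run correlated in their deviations from the group means by -0.060 to 0.33 (median 0.12) in study 1. In study 2 they did so by -0.22 to 0.24 (median 0.10). Between libraries of other runs the correlations were -0.29 to 0.14 (median -0.061) in study 1 and -0.45 to 0.53 (median -0.033) in study 2. The main fits did not take the runs as pairs, and whether the run had an effect was not tested. The calls of CREB3L1 and DERL3 are limited by their depth of 6 to 124 and 12 to 63 counts per group.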
